A study of Mus musculus with 8 samples.

Results

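miR-124, miR-9, miR-137 and miR-153 are miRNAs known for their abundance in neural tissue. Their 6 mature forms mmu-miR-124-3p, mmu-miR-124-5p, mmu-miR-9-5p, mmu-miR-9-3p, mmu-miR-137-3p and mmu-miR-153-3p (mmu, for mouse, is left out from here on) were looked up by name among the 1978 mature mouse miRNAs of the series. Small RNA was sequenced from 8 samples, with 1 library for each condition. P19 is a line of mouse embryonal carcinoma cells, which can form neurons in culture, and it carried a negative control hairpin RNA (shNC) or a hairpin RNA against Perk (shPerk). C2C12, a line of mouse skeletal myoblasts, carried the same kinds of hairpin and was sampled at day 0 and at day 3 of differentiation. A further pair of C2C12 libraries came from cells with an empty vector and cells with ATF4 overexpression. The hairpin lines of C2C12 were made by lentiviral infection and puromycin selection, and the ATF4 and vector cells were kept in growth medium. The labels give no day and no induction state for the P19 cells.

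A miRNA is cut from a hairpin precursor, and either arm of the hairpin (5p or 3p) can enter the silencing complex and pair with target mRNAs through its seed, bases 2 to 8. miR-124 is the most typical miRNA of neurons, where it represses genes of non-neuronal cells. miR-9 acts in neural progenitors and neurons, and both of its arms are known to target parts of the REST repressor machinery. miR-137 is known in neural stem cells as a repressor of Ezh2, and miR-153 is a brain-enriched miRNA that can repress alpha-synuclein. PERK is a kinase of the endoplasmic reticulum that senses unfolded proteins, and ATF4 is the transcription factor translated after PERK is activated.

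The mature sequences of 4 of the 6 miRNAs and of the second arm of miR-153 are printed because seed and arm identity decide what a read of each stands for. They are RefSeq sequences with GRCm38.p6 coordinates, written 5′ to 3′ with the seed in capitals.
miR-9-5p: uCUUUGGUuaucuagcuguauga
miR-9-3p: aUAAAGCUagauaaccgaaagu
miR-137-3p: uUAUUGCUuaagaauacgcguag
miR-153-3p: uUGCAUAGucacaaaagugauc
miR-153-5p: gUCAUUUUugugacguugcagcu
The 5 seeds differ from each other, and 0 other mature names in the RefSeq table carry any of them, so the miRNAs cannot be pooled by seed. miR-9 has 3 hairpin genes with the same mature arms, Mir9-1 (chr3:88215598-88215686), Mir9-2 (chr13:83738814-83738885) and Mir9-3 (chr7:79505264-79505353). GENCODE M21 places Mir9-2 in an exon of the lincRNA C130071C03Rik, and Mir9-1 and Mir9-3 in introns of the lincRNAs Gm3764 and Mir9-3hg. A read of miR-9 therefore cannot be assigned to 1 of these genes. miR-124 also has 3 hairpin genes, Mir124a-1 (chr14:64590657-64590741), Mir124a-2 (chr3:17795662-17795770) and Mir124a-3 (chr2:180894040-180894107), each in an exon of a lincRNA. Mir137 (chr3:118433857-118433929) lies in an exon of the non-coding transcript Gm26871. Mir153 (chr12:117250817-117250885) lies in an intron of the protein-coding gene Ptprn2, and all 8 hairpins are on the plus strand of GRCm38.

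The 4 hairpin libraries of C2C12 held between 8800977 and 11993448 reads on miRNAs. The P19 and ATF4 pairs were deposited as RPM (reads-per-million, of the reads on miRNAs), where a 0 stands for any value below 1. The spacing of these values put the P19 shNC library at about 7900000 reads and the P19 shPerk library at about 4500000 reads, which gives the approximate reads and counting intervals below. The cell lines were checked against marker miRNAs. The 10 markers of pluripotent cells were 3p arms of miR-302, miR-367 and the miR-290 cluster. They took 21.5% of the P19 shNC library and 45.5% of the P19 shPerk library, and at most 0.618 CPM (counts-per-million) of a C2C12 hairpin library. The 4 muscle markers miR-1a-3p, miR-133a-3p, miR-133b-3p and miR-206-3p were present in all 6 C2C12 libraries. Of these, miR-206-3p alone was not listed in P19 cells, so presence of the others does not separate the lines. miR-133a-3p and miR-133b-3p were lower in P19 cells than in any C2C12 library. miR-1a-3p, at 21.2 and 69.6 RPM in P19 shNC and shPerk cells, was above its 6.42 RPM in vector cells. The RNA of Perk is not measured here, so the knockdown itself was not checked.

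Which of the neuronal miRNAs each line held was asked first. miR-124-3p was listed in P19 cells at 198 RPM with shNC and at 29.6 RPM with shPerk. In C2C12 cells it had 0 reads in all 4 hairpin libraries, which allows at most 0.250 to 0.341 CPM (3 reads), and it is not listed in the ATF4 and vector table. miR-124-5p was listed at 236 and 50.5 RPM in P19 cells and likewise had 0 reads in the 4 C2C12 hairpin libraries. Both arms of miR-124 were thus listed above 0 only in the P19 libraries among the 8.

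miR-9-5p was detected in every library. At day 0 the shNC library held 1956 reads of it (173 CPM) and the shPerk library 23241 (2641 CPM). At day 3 the shNC library held 6604 (551 CPM) and the shPerk library 38128 (4044 CPM). The vector and ATF4 libraries listed it at 76.0 and 236 RPM, and the P19 shNC and shPerk libraries at 3359 and 1429 RPM. Its highest level was therefore in C2C12 shPerk cells at day 3, followed by P19 shNC cells, although the tables of the 2 lines were normalised separately.

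miR-9-3p, the second arm of the same hairpins, was lower than miR-9-5p in all 8 libraries. It had 136, 1171, 347 and 1426 reads in the shNC day 0, shPerk day 0, shNC day 3 and shPerk day 3 libraries of C2C12. It was listed at 3.12 and 11.9 RPM in the vector and ATF4 libraries and at 129 and 59.2 RPM in the P19 shNC and shPerk libraries. Among the C2C12 hairpin libraries, its order was the same as that of miR-9-5p.

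miR-153-3p was a low-level miRNA. It had 92, 91, 100 and 231 reads in the shNC day 0, shPerk day 0, shNC day 3 and shPerk day 3 libraries of C2C12, or 8.13 to 24.5 CPM. It was listed at 0 in P19 shNC cells and at 5.38 RPM, about 24 reads, in P19 shPerk cells. Only the shPerk day 3 library stood above the other C2C12 libraries. miR-137-3p had 0 reads in both day 0 libraries, 1 read in the shNC library and 2 in the shPerk library of day 3, and it is not listed in the tables of P19 and of ATF4. miR-137 therefore stayed under 3 reads in the 4 libraries with read counts, and no level of it can be given for P19 cells. Its second arm miR-137-5p and the 2 arms of miR-9b had 0 reads in the 4 hairpin libraries.

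**Figure D1:**
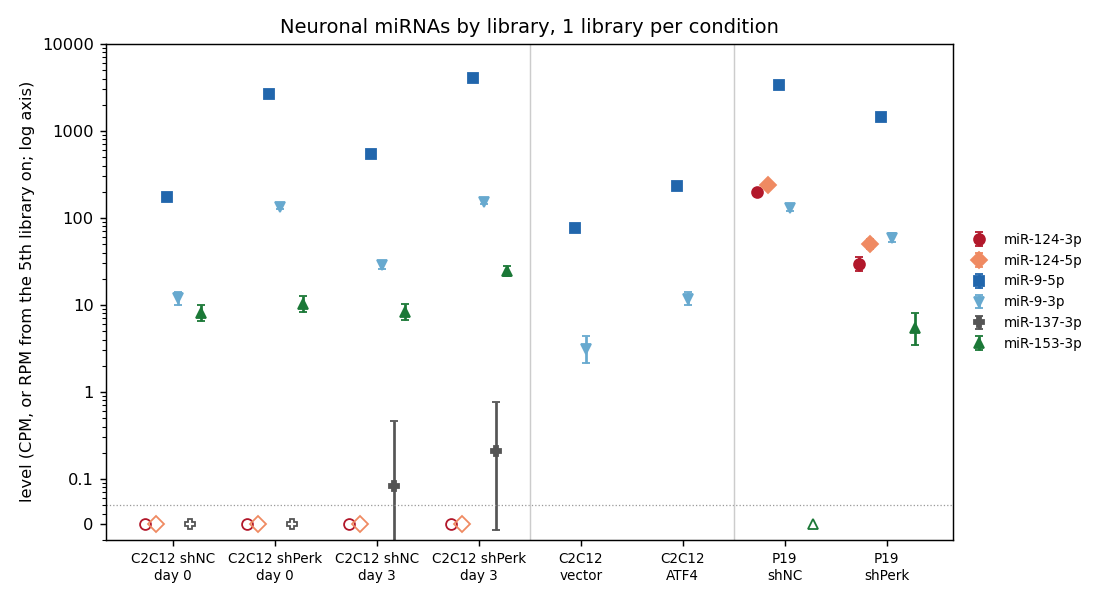
Levels of the 6 miRNAs in the 8 libraries, in CPM for the 4 C2C12 hairpin libraries and in RPM for the others, on a log axis with 0 drawn below the dotted line as open marks. Bars are exact 95% Poisson intervals of the reads (approximate reads for RPM), a miRNA not listed has no mark, and miR-124 appears above 0 in the P19 libraries alone.

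Within P19 cells, the order of the listed levels differed between the libraries. With shNC the order was miR-9-5p (3359 RPM), miR-124-5p (236 RPM), miR-124-3p (198 RPM) and miR-9-3p (129 RPM), and no neighbours in it had overlapping counting intervals. With shPerk the order was miR-9-5p (1429 RPM), miR-9-3p (59.2 RPM), miR-124-5p (50.5 RPM), miR-124-3p (29.6 RPM) and miR-153-3p (5.38 RPM). There, the intervals of miR-9-3p (52.3 to 66.8 RPM) and miR-124-5p (44.1 to 57.5 RPM) overlapped. Among all miRNAs above 0, miR-124-3p went from place 221 of 686 with shNC to place 361 of 690 with shPerk, and miR-9-5p from place 59 to place 76. Levels of different miRNAs also depend on how well each ligates to the linkers, so an order is a description of reads.

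The effect of Perk knockdown in P19 cells was the chief comparison for these miRNAs. Both arms of miR-124 were lower in shPerk cells, miR-124-3p 4.39-fold and miR-124-5p 3.08-fold. With TMM factors, which scale libraries on the bulk of the miRNAs, the log2 fold change was -2.14 for miR-124-3p (95% counting interval -2.40 to -1.88, about 1566 and 132 reads). That of miR-124-5p was -1.62 (95% counting interval -1.83 to -1.42, about 1872 and 225 reads). The intervals are Clopper-Pearson intervals for counting error alone, and with 1 library per condition no test between conditions exists. In whole cultures, fewer cells that express a miRNA and less of it per cell cannot be told apart.

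miR-9 was also lower in P19 shPerk cells, but by less. The log2 fold change was -0.63 for miR-9-5p (95% counting interval -0.67 to -0.59) and -0.51 for miR-9-3p (95% counting interval -0.71 to -0.32), both within the fold limit of 1 on the log2 scale. With libraries scaled to their totals they were -1.23 and -1.12, past the limit, while those of miR-124 were -2.74 and -2.23. Of the 4 neuronal forms with a fold change, 2 were lower past the limit and 0 were higher, where 17.7% of the 696 miRNAs tested were lower and 17.7% higher past it. Another form, miR-153-3p, passed the filter but is left out of this count because it is listed at 0 with shNC. The shares of all miRNAs keep such miRNAs, with a 0 set to 1 RPM, and miR-153-3p is among the higher ones there. Under total scaling 4 were lower past it, against 35.5% of all miRNAs. The 4 forms are 2 pairs of arms, and the arms of a pair come from the same hairpins.

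The pluripotent-cell markers took a larger part of the P19 shPerk library than of the P19 shNC library. Of the 10 markers, 7 were higher past the limit and 0 were lower, and their summed level was 214918 RPM with shNC and 455351 RPM with shPerk. TMM factors moved every log2 fold change up by 0.61 against total scaling. With the libraries scaled to all miRNAs but these 10, the log2 fold changes were -2.21 and -1.70 for miR-124-3p and miR-124-5p and -0.71 and -0.59 for miR-9-5p and miR-9-3p. Markers of other cell types were few: of 3 glial markers miR-219a-5p alone was listed, at 1.26 and 2.69 RPM, and of 3 blood-cell markers miR-451a alone, at 29.7 and 28.1 RPM. The 3 listed muscle markers summed to 34.5 RPM with shNC and 96.9 RPM with shPerk. The part of these cells in the result was not tested.

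**Figure D2:**
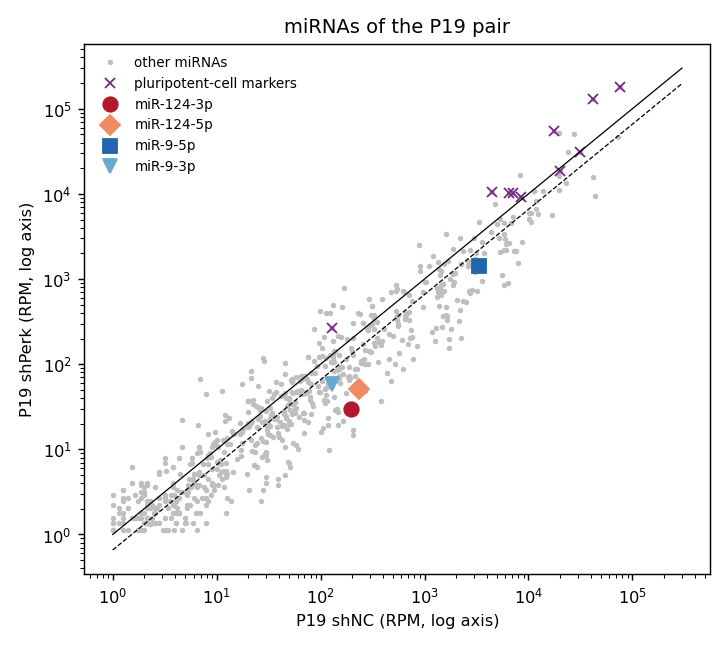
RPM of each miRNA above 0 in both P19 libraries, shNC on the x axis and shPerk on the y axis, both log axes, with the neuronal miRNAs and the 10 pluripotent-cell markers marked. The solid line marks equal RPM and the dashed line no change after TMM scaling; both arms of miR-124 lie further below the dashed line than both arms of miR-9.

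Ratios within a library need no scaling, and they separated miR-124 from miR-9 in P19 cells. miR-9-5p had 17.0 times the RPM of miR-124-3p with shNC and 48.3 times with shPerk. The ratio of miR-124-3p to miR-9-5p thus changed by -1.51 on the log2 scale (95% exact counting interval -1.78 to -1.25). That of miR-124-5p to miR-9-5p changed by -1.0 (95% exact counting interval -1.21 to -0.79). In these 2 libraries the fall of miR-124 was larger than that of miR-9 beyond counting error, whichever scaling is used.

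How a read that fits several hairpins was counted is not stated for these tables. All 4 approximate read numbers of miR-124 in P19 cells are multiples of 3, the number of its hairpin genes, but of the 4 of miR-9, which also has 3 hairpin genes, 264 alone is one. In the vector and ATF4 libraries, however, the approximate reads of miR-9-5p (804 and 2871) and miR-9-3p (33 and 144) are all multiples of 3. With reads divided by 3, the intervals of miR-124-3p (-2.61 to -1.69) and miR-124-5p (-1.99 to -1.28) still lay beyond the fold limit.

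In P19 cells miR-153 did not follow miR-124. miR-153-3p was listed at 0 with shNC and at 5.38 RPM with shPerk, for which no fold is given. miR-153-5p went from 1.89 to 4.04 RPM, or from about 15 to 18 reads, so that its log2 fold change of 1.70 had a wide counting interval (0.63 to 2.79). Under total scaling it was 1.10, and the counting intervals of its RPM with shNC (1.06 to 3.13) and shPerk (2.39 to 6.38) overlapped. Both arms of miR-153 were thus listed higher in P19 shPerk cells, but at few reads and at levels near the bottom of the table.

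In C2C12 cells at day 0, before differentiation, Perk knockdown went with more miR-9. miR-9-5p was 16.8-fold higher with shPerk than with shNC (log2 fold change 4.07, 95% counting interval 4.0 to 4.13), place 17 of 602 miRNAs from the highest. miR-9-3p was 12.1-fold higher, a log2 fold change of 3.60 (95% counting interval 3.35 to 3.87). miR-153-3p, at 8.13 and 10.3 CPM, had a log2 fold change of 0.48 (95% counting interval 0.05 to 0.92). Of the 3 neuronal forms with a fold change, 2 were higher past the limit and 0 were lower, where 15.6% of all 602 miRNAs were higher and 20.3% lower past it.

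At day 3 the same direction was seen in the libraries labelled shPerk. miR-9-5p was 9.25-fold higher (log2 fold change 3.21, 95% counting interval 3.17 to 3.25) and miR-9-3p 6.58-fold higher (2.72, 2.55 to 2.89). miR-153-3p was 3.70-fold higher, with a log2 fold change of 1.89 (95% counting interval 1.54 to 2.24). All 3 forms with a fold change were higher past the limit, where 21.9% of the 575 miRNAs tested were higher and 23.0% lower. Total scaling lowered the 3 values to 2.88, 2.39 and 1.55.

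Some marker miRNAs also differed between shNC and shPerk cells in these C2C12 pairs, in both directions. The blood-cell marker miR-142a-3p went from 28 reads with shNC to 1977 with shPerk at day 0, and from 60 to 665 at day 3. The 3 blood-cell markers summed to 8.74 and 234 CPM at day 0 and to 7.67 and 78.4 CPM at day 3, and of them miR-223-3p had at most 1 read in a library. The third, miR-451a, had 71 and 80 reads at day 0 and 32 and 73 reads at day 3, where it was higher past the limit too, so that 1 of the 3 was higher at day 0 and 2 at day 3. The 4 muscle markers took 1.92% of reads in shNC and 0.384% in shPerk cells at day 0, and 8.85% and 2.43% at day 3, and 3 of 4 at day 0 and 4 of 4 at day 3 were lower past the limit. The 3 glial markers summed to between 1.91 and 3.71 CPM, and the 10 pluripotent-cell markers had 0 reads in both shPerk libraries. The part of these markers in the change of miR-9 was not tested.

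During differentiation of the control cells, miR-9 also rose. From day 0 to day 3 in shNC cells, miR-9-5p was 3.83-fold higher (log2 fold change 1.94, 95% counting interval 1.86 to 2.01) and miR-9-3p 2.89-fold higher (1.53, 1.24 to 1.83). miR-153-3p was near level, with a log2 fold change of 0.30 (95% counting interval -0.12 to 0.73). Of 3 forms with a fold change, 2 were higher past the limit, where 12.5% of the 593 miRNAs tested were higher and 16.5% lower.

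In shPerk cells the change from day 0 to day 3 had another pattern. miR-9-5p had a log2 fold change of 0.97 (95% counting interval 0.95 to 1.0), at the fold limit, and 0.61 under total scaling. That of miR-9-3p was 0.54 (95% counting interval 0.43 to 0.66). miR-153-3p was 3.03-fold higher, a log2 fold change of 1.60 (95% counting interval 1.25 to 1.97), and was the 1 of 3 forms past the limit, against 16.9% of the 573 miRNAs tested. The 4 comparisons of the hairpin libraries share libraries in pairs, so they are not independent of each other.

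ATF4 overexpression in C2C12 cells went with more miR-9 as well. miR-9-5p went from 76.0 RPM in vector cells to 236 RPM in ATF4 cells (log2 fold change 1.70, 95% counting interval 1.59 to 1.81, about 804 and 2871 reads). miR-9-3p went from 3.12 to 11.9 RPM (log2 fold change 1.99, 95% counting interval 1.43 to 2.58, about 33 and 144 reads). These were the 2 of the 6 forms listed in this table, and both were higher past the limit, where 14.5% of 605 miRNAs were higher and 8.93% lower. Of the 3 blood-cell markers, 0 were higher and 1 was lower past the limit (miR-142a-3p, 7.66 RPM in vector and 2.14 RPM in ATF4 cells), and 2 of the 4 muscle markers were higher. Among C2C12 cells, miR-9-5p was therefore higher both with the hairpin against Perk and with ATF4, each against its own control library.

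**Figure D3:**
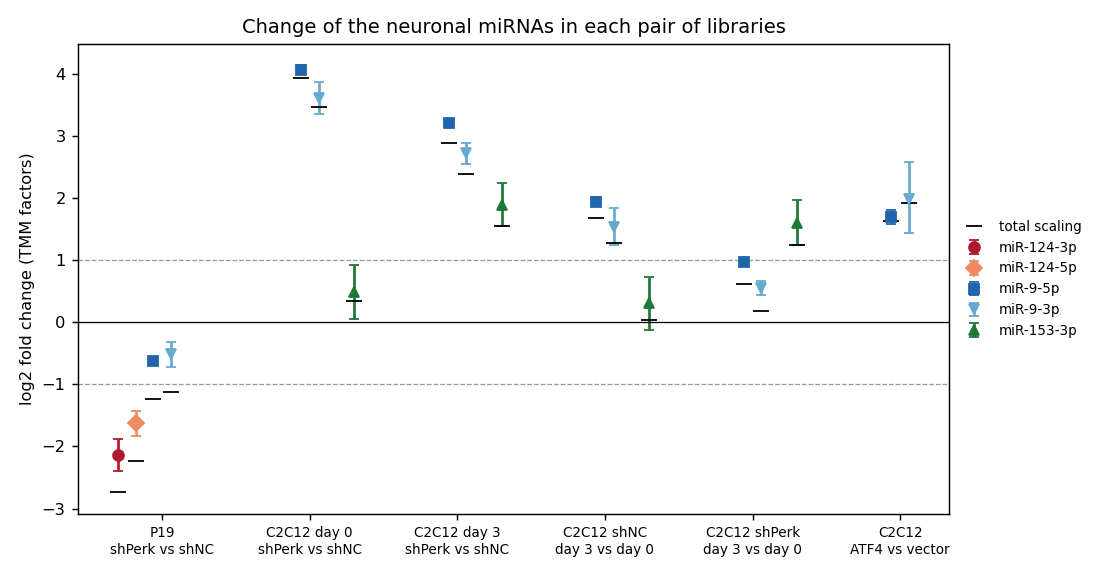
Log2 fold change of the neuronal miRNAs in the 6 pairs of libraries with TMM factors, with 95% counting intervals as bars, and under total scaling as black ticks. Dashed lines mark the fold limit; miR-124 and miR-9 are below 0 in P19 cells, and miR-9 is above 0 in the 5 C2C12 pairs.

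The share of reads from each arm was compared because it too needs no scaling between libraries. The 5p arm gave 54.5% of miR-124 reads in P19 shNC cells (95% Clopper-Pearson interval 52.8 to 56.1) and 63.0% in P19 shPerk cells (57.8 to 68.0). The arm usually called the guide of miR-124, 3p, was thus the less frequent arm in both P19 libraries. The intervals did not overlap, but with reads divided by 3 they did (51.5 to 57.4% and 53.7 to 71.7%).

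miR-9 came almost wholly from its 5p arm in every library, from 93.5% in C2C12 shNC cells at day 0 (95% interval 92.4 to 94.5) to 96.4% in C2C12 shPerk cells at day 3 (96.2 to 96.6). The P19 libraries had 96.3% with shNC and 96.0% with shPerk, with overlapping intervals. In C2C12 cells the 5p arm took a larger part in shPerk than in shNC cells at both days. The ratio of miR-9-5p to miR-9-3p was 14.4 and 19.8 at day 0, a change of 0.46 on the log2 scale (95% exact counting interval 0.19 to 0.73). At day 3 it was 19 and 26.7, a change of 0.49 (95% exact counting interval 0.31 to 0.67). With reads divided by 3, the interval at day 0 reached below 0, from -0.04 to 0.92.

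The arms of miR-153 parted in 1 library. The 5p arm took 35.7%, 35.5% and 33.8% of miR-153 reads in the shNC day 0, shPerk day 0 and shNC day 3 libraries of C2C12, and 13.2% in shPerk cells at day 3 (95% Clopper-Pearson interval 9.34 to 17.8). miR-153-5p had 51, 50, 51 and 35 reads in these 4 libraries, and its log2 fold change at day 3 was 0.14, or -0.20 under total scaling. The higher level of miR-153-3p in shPerk cells at day 3 was therefore not shared by the other arm of the same hairpin. The ratio of miR-153-3p to miR-153-5p was 1.96 in shNC and 6.60 in shPerk cells at day 3, a change of 1.75 on the log2 scale (95% exact counting interval 1.0 to 2.5).

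**Figure D4:**
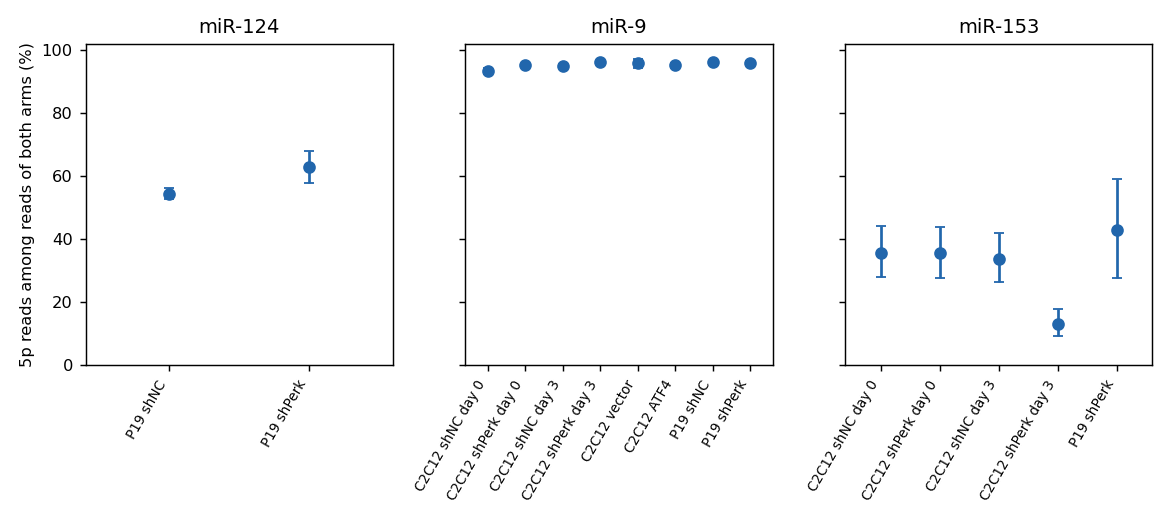
Percentage of reads from the 5p arm among the reads of both arms of miR-124, miR-9 and miR-153 in the libraries that list both arms above 0, with 95% Clopper-Pearson intervals (approximate reads for RPM). miR-9 lies above 93% throughout, and miR-153 is lowest in C2C12 shPerk cells at day 3.

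Other brain-enriched miRNAs showed whether the P19 pattern of miR-124 was shared. Of a list of 25, 22 were tested in the P19 pair, and 5 were higher and 2 lower past the limit, where 35.3% of all miRNAs were past it in either direction. Their median log2 fold change was 0.46, against -0.04 for all miRNAs tested. Under total scaling 2 were higher and 4 lower, with a median of -0.15 against -0.65 for all. Of all 696 miRNAs, 46 were higher and 247 lower past the limit under that scaling.

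The largest rises in this list were those of miR-139-5p, from 28.4 to 108 RPM (log2 fold change 2.54), miR-219a-5p, from 1.26 to 2.69 RPM (1.70), and miR-7b-5p, from 108 to 207 RPM (1.54). miR-219a-5p is a miRNA of oligodendrocytes and stands in the glial list too. The largest falls were those of miR-129-1-3p, from 4.67 to 1.12 RPM (log2 fold change -1.45), and miR-134-5p, from 2655 to 715 RPM (-1.29). The next was miR-212-3p, a miRNA induced by neuronal activity, at 10.2 and 3.81 RPM (-0.82, within the limit). Among these, miR-219a-5p and miR-129-1-3p rest on few reads, since 1 read is about 0.126 RPM with shNC and 0.224 RPM with shPerk. The 1.12 RPM of miR-129-1-3p is the smallest value above 0 in the shPerk library, and no counting intervals were made for this list. miR-128-3p, which is abundant in brain and in muscle, had 2628 and 1631 RPM and a log2 fold change of -0.08. In C2C12 cells, 1 of the 17 listed miRNAs with a fold was higher and 4 lower past the limit at day 0 (35.9% of all miRNAs in either direction), and 4 of 16 were higher and 5 lower at day 3 (44.9%). From day 0 to day 3, 4 of 18 were higher and 4 lower in shNC cells, and 5 of 16 were higher and 3 lower in shPerk cells, and with ATF4 2 of 16 were higher and 1 lower, where 29.0%, 33.9% and 23.5% of all miRNAs were past the limit. Under total scaling these counts were 1 higher and 5 lower at day 0, and 3 and 6 at day 3. Over time they were 1 and 5 in shNC cells and 5 and 3 in shPerk cells, and with ATF4 2 and 2. Among all miRNAs tested, total scaling gave 78 higher and 143 lower of 602 at day 0, and 93 and 166 of 575 at day 3. Over time it gave 51 and 140 of 593 in shNC cells, 58 and 161 of 573 in shPerk cells, and with ATF4 81 and 63 of 605.

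**Figure D5:**
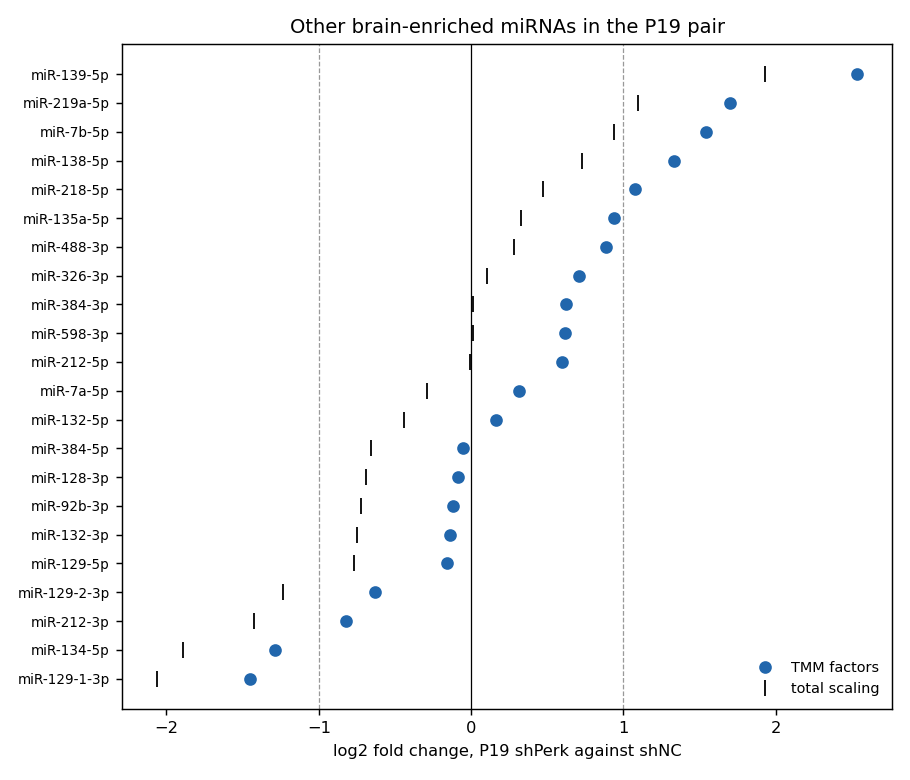
Log2 fold change in P19 shPerk against shNC cells of the 22 other brain-enriched miRNAs tested, with TMM factors (points) and total scaling (ticks). Dashed lines mark the fold limit; the points run from -1.45 for miR-129-1-3p, which rests on few reads, to 2.54 for miR-139-5p.

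The miRNAs whose levels were most like those of the neuronal miRNAs were found by the root mean square difference of centred log2 levels. For miR-9-5p over 8 libraries, among 489 others, the nearest was its own second arm miR-9-3p (difference 0.31), followed by miR-218-5p (0.82) and miR-195a-5p (0.84). miR-218-5p, a miRNA of motor neurons encoded in the Slit genes, had 221 and 2912 CPM in shNC and shPerk cells at day 0, and 917 and 8470 CPM at day 3. It was listed at 213 and 1126 RPM in vector and ATF4 cells. In P19 cells it differed in direction from miR-9-5p, at 2177 RPM with shNC and 3019 RPM with shPerk.

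For miR-124-3p, 6 libraries list it and 695 other miRNAs could be compared, but it was at 0 in 4 of them, so the likeness rests on the P19 pair. The nearest were miR-299a-5p (difference 0.04), at 201 and 29.6 RPM in P19 shNC and shPerk cells, and miR-299b-5p (0.04), at 201 and 29.6 RPM. The third nearest was miR-1197-3p (0.05), at 217 and 30.1 RPM. miR-299a-5p and miR-299b-5p had nearly the same values, and whether they shared reads is uncertain.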

How the data were processed

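Small RNA of 8 samples was ligated, reverse-transcribed, amplified and gel-selected by a company, and reads were annotated with bowtie (version not given in the sources used here; builds named in the submitters' processing notes are mm10 and GRCm38). Raw read counts per mature miRNA were deposited by the authors for the C2C12 hairpin libraries. For the ATF4 and P19 pairs the authors deposited RPM values. The deposited tables also hold the authors' fold changes, p-values and q-values, which were not used.

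miRNAs at 1 or more CPM or RPM in at least 1 library of a pair were kept. Log2 fold changes used edgeR 4.0.16 TMM factors. A prior count of 0.125 was used for the read counts only, and RPM values at 0 were set to 1. Calls rest on a log2 fold change beyond 1 alone, since each condition has 1 library. No fold is given against 3 reads or fewer, or a listed 0. Approximate reads came from the RPM spacing, at which 93.6% to 95.0% of values under 200 RPM were whole within 0.005 RPM. Intervals cover counting error only, since no condition has a second library. PCR copies carry no molecular identifiers and count as reads, so the intervals may be too narrow even for that. The members, lists and fold limit were chosen with earlier results of these data known. The miRNAs named are the 6 members, their other arms, the 3 largest changes each way of the brain list in P19 cells, marker miRNAs and the 3 miRNAs nearest to miR-124-3p and to miR-9-5p. miR-128-3p and miR-292a-5p, named as well, were chosen after their values were seen. Steps were tested on simulated data. Alternatives were other scalings (total, DESeq2 1.42.0 median of ratios, upper quartile), filters, prior count 2, zeros at 0.5 RPM, exact tests and, chosen after seeing the data, reads divided by 3, an exact binomial test on approximate reads and a total without pluripotent-cell markers. Tools were R 4.3.3 and Python 3.11.15 with scipy 1.17.1.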

Additional observations from a re-analysis of the deposited data

Results flagged for a closer look

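miR-9 differed in direction between the cell lines under the same contrast, shPerk against shNC. miR-9-5p had log2 fold changes of 4.07 at day 0 and 3.21 at day 3 in C2C12 cells and -0.63 in P19 cells. miR-9-3p had 3.60 and 2.72 in C2C12 cells and -0.51 in P19 cells. Each line and day has 1 library per condition, so the difference between the lines was not tested. The P19 tables and the C2C12 tables hold different units and were normalised separately, and the sign in P19 cells was the same under the 5 scalings run.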

How the results depend on the processing

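No paired analysis was possible because each condition has 1 library and the labels carry no replicate numbers, and for the same reason no library could be left out. Both arms of miR-124 stayed past the fold limit in P19 cells under every scaling run. Of 101 alternative values of the neuronal miRNAs and their other arms, 3 changed sign, all of miR-153-5p (ATF4 -0.06 by upper quartile, day 3 -0.20 and shNC day 3 against day 0 -0.08 by total), and 3 crossed the limit: miR-9-5p and miR-9-3p in P19 cells by total (-1.23 and -1.12) and miR-9-5p in shPerk cells over time by median of ratios (1.02). Counts of miRNAs past the limit were 246 (P19), 216 (day 0), 258 (day 3), 172 (shNC over time), 194 (shPerk over time) and 142 (ATF4). With no filter on low values the 4 hairpin comparisons gave 588, 627, 556 and 511. Keeping only miRNAs that averaged 10 CPM or RPM or more, they gave 119, 148, 74 and 95, and the ATF4 pair 76. An exact test of edgeR was also added to the main calls, with the coefficient of variation between replicates taken as 0.4. It left 56, 51, 7 and 1 of the 216, 258, 172 and 194 in the 4 hairpin comparisons. The exact binomial test on approximate reads gave 233 in P19 cells and 142 with ATF4. The split of higher and lower miRNAs moved with the scaling: P19 from 123 and 123 to 46 and 247 by total, day 3 from 126 and 132 to 93 and 166, shNC over time from 74 and 98 to 51 and 140, shPerk over time from 97 and 97 to 58 and 161, and ATF4 from 88 and 54 to 53 and 124 by upper quartile. The C2C12 shNC libraries of day 0 and day 3 are each repeated with identical counts in another table, so the equal 5p shares there test nothing. Depth limits miR-137 and miR-153, whose reads were few.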
